A study of Homo sapiens with 18 samples.

Results

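The 9 keratin genes KRT7, KRT8, KRT17, KRT18, KRT19, KRT20, KRT23, KRT80 and KRT81 were picked by symbol out of 60642 gene symbols in an RNA sequencing count table of human colorectal cancer cell lines. The table holds 54 keratin genes, so that 45 others stand beside these 9, together with the pseudogenes of KRT8, KRT18, KRT19 and KRT17. The 18 libraries form 6 groups of 3. SW620 cells, from a lymph node metastasis of a colon carcinoma, had RepSox or its vehicle DMSO and no inducer. HT-29 iZEB1 cells are HT-29 colon carcinoma cells, and all of them, those without inducer included, carry a ZEB1 transgene that doxycycline (DOX) switches on. These cells had DOX and RepSox, DOX and DMSO, RepSox alone or DMSO alone. ZEB1 is a zinc-finger repressor of epithelial genes, and RepSox blocks the TGF-β type I receptor kinase ALK5. The RepSox dose was 10 µM, over 24 h, and the DOX dose 1 µg per ml. The treatment protocol gives 24 h of DOX, whereas the design text gives 48 h. The sources used here do not say whether the HT-29 iZEB1 line is 1 clone, which promoter drives the transgene, or whether replicates were separate cultures. What the p-values measure is thus library-to-library spread, and that could be technical.

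Keratins are the intermediate filament proteins of epithelial cells. A filament is built from pairs of 1 acidic type I and 1 basic type II keratin, so that each cell needs both kinds. KRT8 (type II) and KRT18 (type I) are the first pair made in simple, single-layered epithelia, and KRT19 and KRT20 are further type I partners in the gut lining. The filaments are anchored at desmosomes by plakins and plakophilins. Loss of keratins and gain of vimentin are commonly used signs of the epithelial-mesenchymal transition.

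Between 36.5 and 39.8 M counts were assigned in each library, and the 9 genes took 0.413% to 0.985% of them, the lowest share in a library with DOX and DMSO and the highest in SW620 with RepSox. Levels are given as CPM, the count relative to the scaled library size, with the mean ± SD of 3 libraries. ZEB1, which checks the inducer, had 16.0 ± 1.39 CPM with DOX and RepSox, 378 ± 7.05 CPM with DOX and DMSO, 5.38 ± 0.347 CPM with RepSox alone and 8.55 ± 1.59 CPM with DMSO alone. In SW620 it had 23.7 ± 0.827 CPM with RepSox and 21.5 ± 2.54 CPM with DMSO. All the cells carry the label epithelial, and none of the 6 epithelial markers checked (EPCAM, CDH1, CLDN4, CLDN7, ESRP1 and ST14) was at 0 in any group. Their summed level was 1006 to 1170 CPM with DOX and DMSO, against 2665 to 2836 CPM with DMSO alone, and 572 to 597 CPM over both SW620 groups. Summed fibroblast, leukocyte and endothelial marker levels did not pass 12.8, 8.74 and 11.1 CPM in any library. Because these are bulk RNA samples, fewer cells that express a keratin and less of its RNA per cell cannot be told apart.

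KRT8, the type II keratin of simple epithelia, was the most abundant of the 9 in every group. It lies on the minus strand of chromosome 12 (52897187 to 52949954, GENCODE 29 on GRCh38, as for all gene positions here). The 3 libraries had 6664, 6838 and 6589 CPM with DOX and RepSox, 2779, 3145 and 2829 CPM with DOX and DMSO, 6239.6, 6169 and 6132 CPM with RepSox alone, and 5692, 6025 and 5268 CPM with DMSO alone. In SW620 they had 5654, 5533 and 5884 CPM with RepSox and 3967, 3691 and 3679 CPM with DMSO. The order of group means was DOX with RepSox, RepSox alone, SW620 with RepSox, DMSO alone, SW620 with DMSO, and DOX with DMSO. Of neighbours in this order, only SW620 with RepSox and HT-29 iZEB1 with DMSO overlapped.

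KRT18, the type I partner of KRT8, lies next to it on the plus strand (chromosome 12, 52948871 to 52952901). Its libraries had 2008, 2707 and 2517 CPM with DOX and RepSox, 891, 913 and 857 CPM with DOX and DMSO, 1839, 2164 and 1939.8 CPM with RepSox alone, and 1671, 1950.4 and 1625 CPM with DMSO alone. In SW620 they had 1902, 1891 and 2077 CPM with RepSox and 1439, 1428 and 1369 CPM with DMSO. The order matched that of KRT8, with overlap between neighbours among the 4 highest groups. Replicate 1 of DOX with RepSox lay apart from replicates 2 and 3 for KRT18, though not for KRT8. Exons of KRT8 and KRT18 share 525 bases on opposite strands. The strand setting of the counting is not given in the sources used here, so reads there cannot be assigned to 1 of the pair.

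KRT19, a short type I keratin without a tail domain, lies on chromosome 17 (minus strand, 41523617 to 41528308). It was highest in SW620, with 1199, 1204 and 1273 CPM with RepSox and 727, 749.8 and 649 CPM with DMSO. HT-29 iZEB1 libraries had 272, 330.1 and 285 CPM with DOX and RepSox, 212, 255 and 218 CPM with DOX and DMSO, 333, 308 and 298 CPM with RepSox alone, and 543, 551 and 488 CPM with DMSO alone. Only RepSox alone and DOX with RepSox, neighbours in the order, overlapped.

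KRT20, a type I keratin of differentiated intestinal epithelium (chromosome 17, minus strand, 40875941 to 40885227), was close to the floor in SW620. SW620 libraries had 6, 6 and 8 counts with RepSox and 9, 11 and 2 counts with DMSO, all at or under 0.283 CPM. HT-29 iZEB1 libraries had 64.1, 80.9 and 78.1 CPM with DOX and RepSox, 99.0, 104 and 102 CPM with DOX and DMSO, 64.0, 61.4 and 71.3 CPM with RepSox alone, and 164, 154 and 159 CPM with DMSO alone. The groups fell in the order DMSO alone, DOX with DMSO, DOX with RepSox and RepSox alone, and only the last 2 overlapped.

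KRT80, a type II keratin found in many epithelia (chromosome 12, minus strand, 52168996 to 52192000), had 325, 325 and 336 CPM in SW620 with RepSox and 186, 193 and 189 CPM in SW620 with DMSO. In HT-29 iZEB1 it had 53.8, 50.2 and 51.2 CPM with DOX and RepSox, 29.6, 35.6 and 32.3 CPM with DOX and DMSO, 57.4, 58.8 and 58.3 CPM with RepSox alone, and 80.4, 77.1 and 82.0 CPM with DMSO alone. No neighbouring groups overlapped in its order, in which both SW620 groups stood above all HT-29 iZEB1 groups.

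KRT81, a type II keratin of the hair shaft (chromosome 12, minus strand, 52285913 to 52291534), had 84.9, 87.5 and 92.4 CPM in SW620 with RepSox and 30.9, 37.8 and 32.3 CPM in SW620 with DMSO. Each HT-29 iZEB1 library held between 1 and 13 KRT81 counts, and neighbouring groups in the order overlapped there, while DOX with DMSO and DMSO alone did not. KRT7, a type II keratin of glandular and ductal epithelia (chromosome 12, plus strand, 52232520 to 52252186), had 13.1, 13.4 and 12.7 CPM in SW620 with RepSox and 5.51, 4.98 and 5.13 CPM in SW620 with DMSO. Its HT-29 iZEB1 libraries had 0.483 to 1.32 CPM, and neighbouring groups overlapped. KRT7 overlaps KRT7-AS over 282 exon bases and KRT87P over 32 exon bases on the other strand.

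KRT23, a type I keratin (chromosome 17, minus strand, 40922696 to 40937634), had 7.26, 6.28 and 7.69 CPM in SW620 with RepSox and 3.93, 5.68 and 5.15 CPM in SW620 with DMSO. In HT-29 iZEB1 it had 0.543 to 1.19 CPM over the DOX with RepSox, DOX with DMSO and RepSox groups, which overlapped, and 1.67, 1.22 and 1.38 CPM with DMSO alone. KRT17, a type I keratin of basal and stressed epithelia (chromosome 17, minus strand, 41619441 to 41624842), had 0.507 to 2.15 CPM over all libraries, and each neighbouring pair of groups overlapped.

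**Figure D1:**
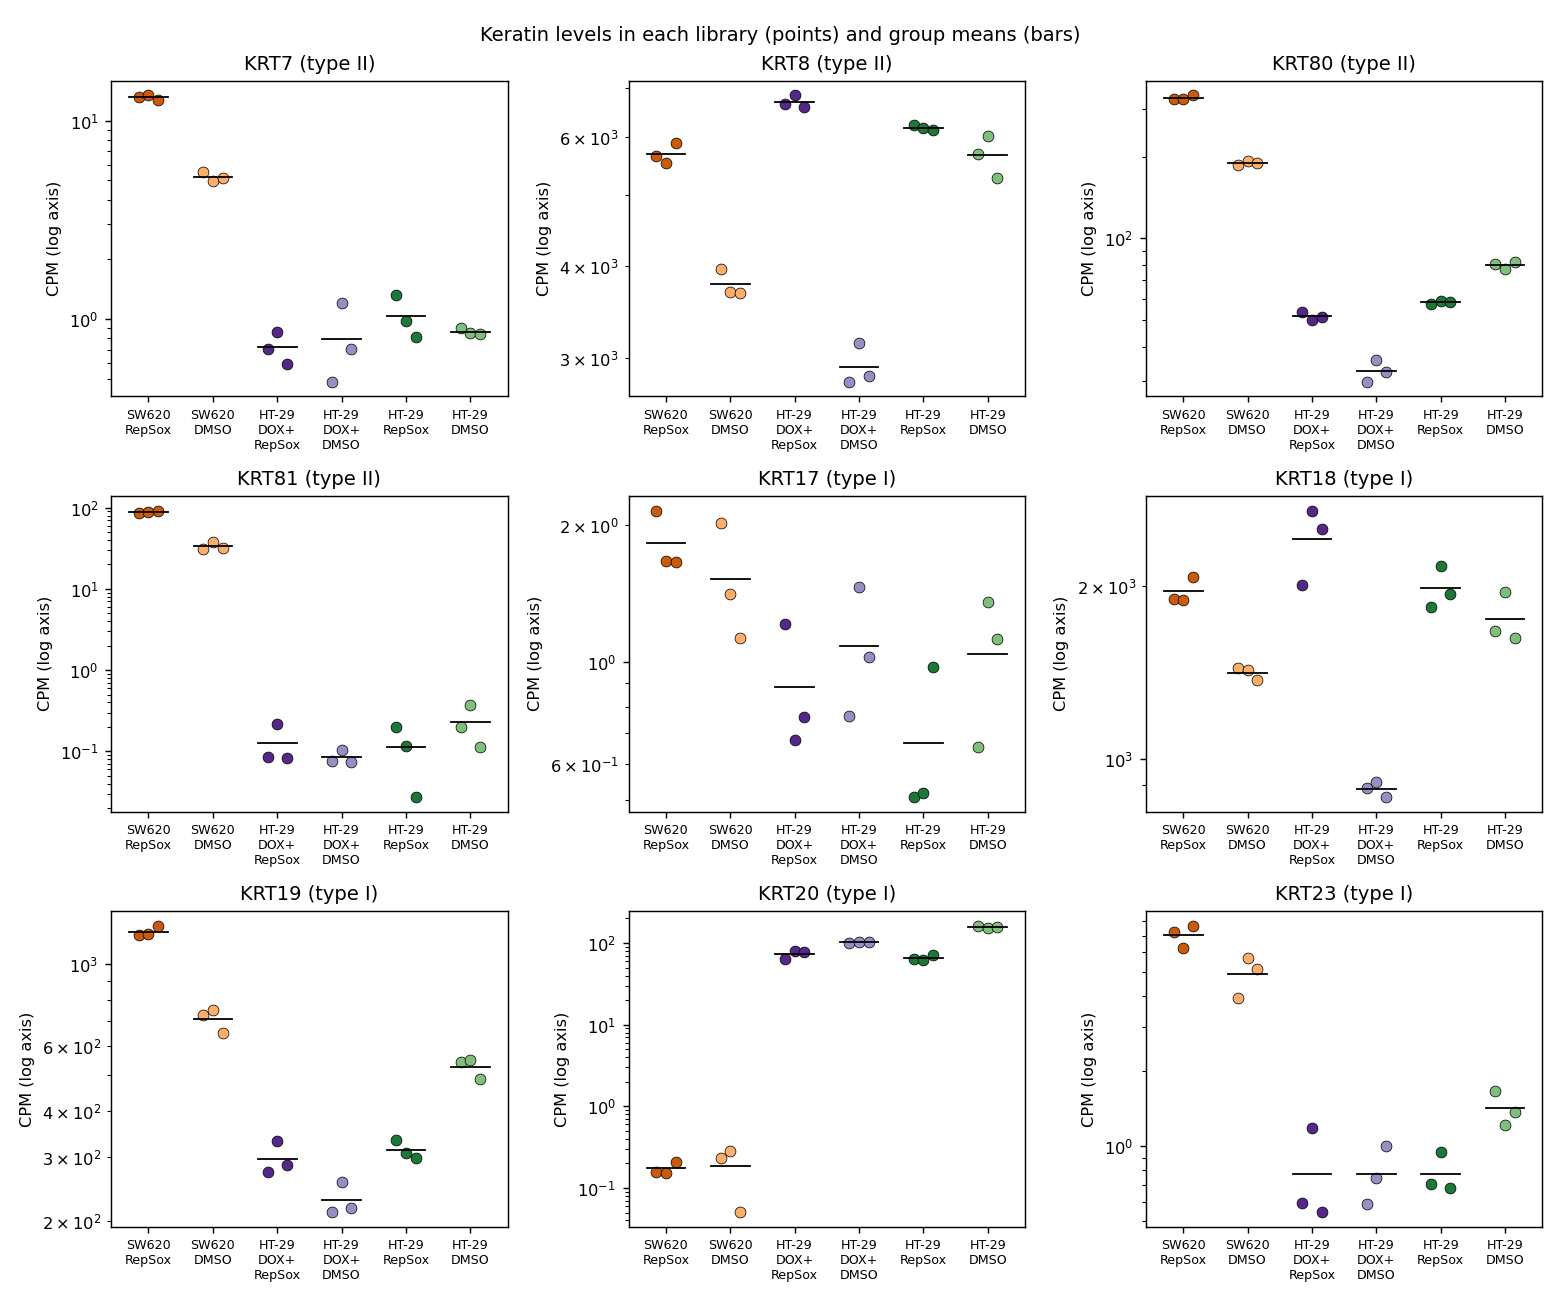
Level of each of the 9 keratins in CPM (log axis, its range differs between panels) in the 3 libraries (points) of each of the 6 groups, with group means (bars). KRT8 and KRT18 are lowest with DOX and DMSO, KRT20 is near 0 in SW620, and KRT81 is near 0 in HT-29 iZEB1.

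Keratin genes have processed copies across the genome, and reads can be shared with them. The stretches below, all from GENCODE 29 transcripts on GRCh38, show how close a copy of KRT18 and the KRT81 neighbour KRT83, which both drew reads, are to their parent or neighbour. Each holds coding bases 301 to 400 of KRT18 or KRT81, 5′ to 3′, or the bases aligned to them, and capitals mark bases that differ from that gene.
KRT18: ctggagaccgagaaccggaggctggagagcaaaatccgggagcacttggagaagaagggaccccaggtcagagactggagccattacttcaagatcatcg
KRT18P17: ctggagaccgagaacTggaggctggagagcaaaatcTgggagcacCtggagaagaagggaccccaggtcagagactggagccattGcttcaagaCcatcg
KRT81: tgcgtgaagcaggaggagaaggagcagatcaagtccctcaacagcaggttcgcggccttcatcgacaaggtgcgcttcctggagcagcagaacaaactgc
KRT83: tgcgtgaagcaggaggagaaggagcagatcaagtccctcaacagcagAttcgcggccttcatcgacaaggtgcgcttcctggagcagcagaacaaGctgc
KRT18P17 (chr3:12788273-12788372, minus strand) differed from KRT18 at 5 of these 100 bases. KRT83, a neighbouring hair keratin gene, differed from KRT81 at 2, and was 94.1% identical to it over 1422 aligned bases. KRT86, 96.6% identical to KRT81 over 1325 bases, is not analysed here, so reads it may share with KRT81 were not assessed.

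Of 50 KRT8 pseudogenes in the table, 42 had counts, and together they held 0.771% to 1.93% as many counts as KRT8. KRT8P3, 97.1% identical to KRT8 over 1449 bases, drew the most, with 1.39% of KRT8 counts in SW620 with RepSox, 1.35% in SW620 with DMSO, 0.654% with DOX and RepSox, 0.627% with DOX and DMSO, 0.572% with RepSox alone and 0.567% with DMSO alone. It lay between 0.522% and 0.753% over all HT-29 iZEB1 libraries and between 1.28% and 1.46% over all SW620 libraries. KRT8P12, 86.0% identical, had group means of 4.51 to 6.00 CPM, so that its share of KRT8 was highest with DOX and DMSO (0.206%) and lowest with RepSox alone (0.073%). The 66 KRT18 pseudogenes, 47 of them with counts, held 0.217% to 0.414% of KRT18 counts. Copies of KRT19 stayed at or under 0.0104% of their parent. KRT17P4 had 63 counts over the 3 libraries with RepSox alone and 106 with DMSO alone, where KRT17 had 72 and 111. It had 57 counts with DOX and RepSox and 92 with DOX and DMSO, where KRT17 had 96 and 129. In SW620 it had only 4 counts with RepSox and 6 with DMSO, where KRT17 had 211 and 179. The best single alignment of KRT17P4 to KRT17 was 82.6% identical over 259 bases. KRT17P4 has 2964 exon bases, and its other stretches were not assessed. KRT17P1 and KRT17P3, 95.2% and 95.1% identical, had 2 counts each over the 18 libraries, and whether KRT17 and its copies share reads was not tested. Summing overlapping or similar genes changed the sign of the log2 change with DOX for KRT17 (-0.17, adjusted p = 0.572) and KRT7 (0.05, adjusted p = 0.9), neither called.

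**Figure D2:**
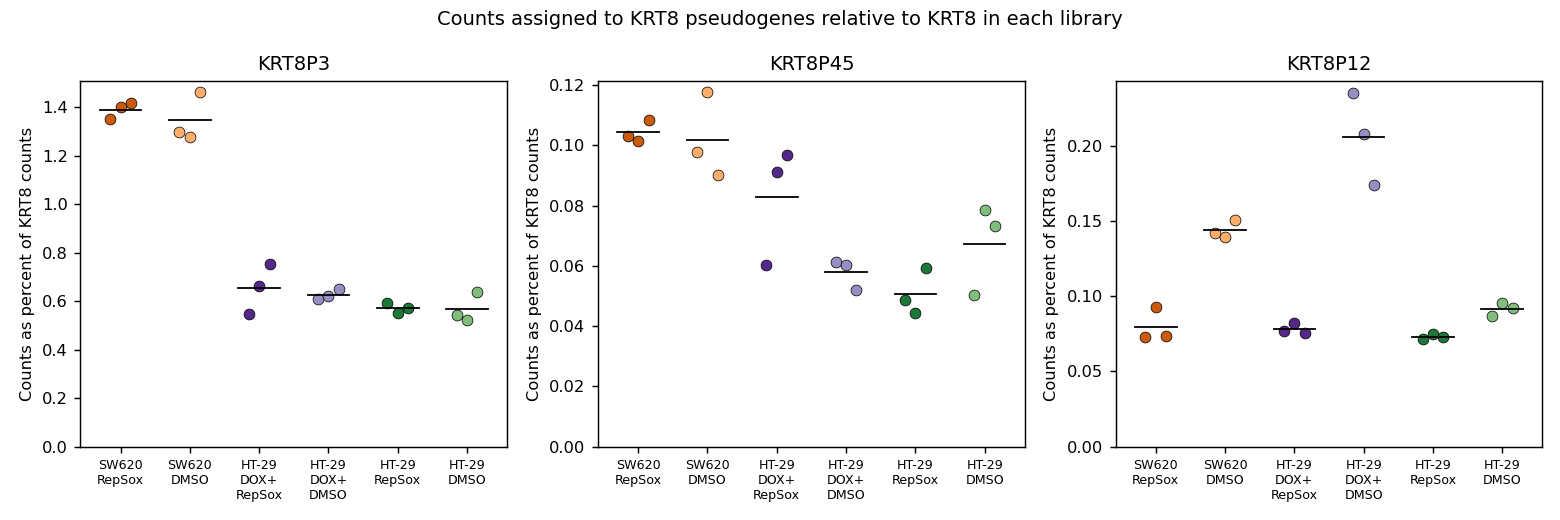
Counts assigned to 3 KRT8 pseudogenes as a percentage of KRT8 counts (linear axes from 0, a different range in each panel), 1 point per library and a bar at each group mean. KRT8P3 stays between 0.522% and 0.753% in HT-29 iZEB1, whereas KRT8P12 takes a larger share where KRT8 is low.

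ZEB1 induction was examined by comparing DOX with no DOX under DMSO. No cells without the ZEB1 transgene had DOX, so an effect of DOX itself was not tested. DOX lowered 6 of the 8 keratins tested and raised none, where 21.1% of 16978 genes were called lower and 19.2% higher (40.4% called in all). With library totals in place of TMM scaling the higher share of all calls was 59.5% in place of 47.6%, and the same count of keratins, 6, was lower. KRT80 fell most, by 1.29 ± 0.07 on the log2 scale (2.45-fold, adjusted p = 3.4e-11, edgeR quasi-likelihood test with Benjamini-Hochberg adjustment, as for all adjusted p-values below). KRT19 fell by 1.20 ± 0.08 (2.30-fold, adjusted p = 1.5e-09), KRT18 by 0.97 ± 0.09 (1.97-fold, adjusted p = 1.3e-07) and KRT8 by 0.95 ± 0.06 (1.93-fold, adjusted p = 6.4e-10). Errors of log2 changes are standard errors. The intestinal KRT20 fell by 0.64 ± 0.08 (1.55-fold, adjusted p = 2.6e-06).

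KRT23 fell by 0.86 ± 0.30 with DOX (adjusted p = 0.028) at 23 to 59 counts per library. Its call was lost without DMSO replicate 1 (adjusted p = 0.113) or 3 (0.0524), and without DOX with DMSO replicate 1 (0.115) or 2 (0.0607). KRT7 (-0.11 ± 0.32, adjusted p = 0.808) and KRT17 (0.06 ± 0.34, adjusted p = 0.911) were not called, and their 95% intervals ran from -0.78 to 0.55 and from -0.65 to 0.76. KRT81 did not pass the filter on low counts in HT-29 iZEB1. The median log2 change of the 8 tested keratins was -0.91, against 0.002 over all genes tested. All 6 epithelial markers were called lower too. CDH1, the E-cadherin gene, fell by 1.01 ± 0.05 to 232 ± 5.71 CPM with DOX and DMSO, against 469.5 ± 16.2 CPM with DMSO alone. The summed endothelial markers moved as well, at 10.3 to 11.1 CPM with DOX and DMSO and 2.29 to 3.37 CPM with DMSO alone, where CDH5 and KDR were at 0. The part of these marker changes in the keratin results was not tested.

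Cells with DOX and RepSox were compared with cells with DOX and DMSO. The simple-epithelial pair rose most, KRT18 by 1.43 ± 0.10 (2.70-fold, adjusted p = 5.5e-10) and KRT8 by 1.19 ± 0.06 (2.28-fold, adjusted p = 2.7e-11). KRT80 rose by 0.66 ± 0.07 (1.58-fold, adjusted p = 2.2e-07) and KRT19 by 0.36 ± 0.08 (1.29-fold, adjusted p = 0.00116). KRT20 fell further, by 0.46 ± 0.08 (1.38-fold, adjusted p = 6.6e-05). So 4 of 8 tested keratins were higher and 1 was lower, where 26.8% of all genes were called higher and 25.5% lower (52.2% in all). KRT7 (-0.15 ± 0.32), KRT17 (-0.31 ± 0.34) and KRT23 (-0.01 ± 0.32) were not called. The median of the 8 was 0.17, against -0.01 over all genes, and 5 of 6 epithelial markers were higher. ZEB1 itself was 23.8-fold lower with DOX and RepSox than with DOX and DMSO (adjusted p = 4.0e-16), and its part in the keratin changes was not tested. This comparison and the one before share the DOX with DMSO libraries, so that any deviation in them enters both with opposite sign.

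The difference between the DOX effect under RepSox and that under DMSO was tested directly as an interaction. It was positive for 5 of 8 tested keratins, where 13.0% of genes were called higher and 9.61% lower (22.6% in all). With library totals the higher share of those calls was 47.0% in place of 57.4%, and 5 keratins were again higher. The difference was 1.26 ± 0.13 for KRT18 (adjusted p = 1.2e-06), 1.13 ± 0.10 for KRT80 (1.0e-07), 1.12 ± 0.12 for KRT19 (1.1e-06), 1.07 ± 0.09 for KRT8 (5.8e-08) and 0.82 ± 0.11 for KRT20 (2.4e-05). KRT23 had 0.86 ± 0.44 (adjusted p = 0.179), with a 95% interval from -0.07 to 1.79, and was not called, nor were KRT7 (-0.41 ± 0.45) and KRT17 (0.34 ± 0.50).

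RepSox alone was compared with DMSO alone in HT-29 iZEB1 without DOX. The 2 most abundant keratins did not pass the test: KRT8 had 0.12 ± 0.06 (adjusted p = 0.18, 95% interval -0.01 to 0.25, with each RepSox library above each DMSO one) and KRT18 0.17 ± 0.09 (adjusted p = 0.199, 95% interval -0.02 to 0.37). The other simple type I keratins fell. KRT20 fell by 1.28 ± 0.08 (2.43-fold, adjusted p = 3.5e-09) and KRT19 by 0.76 ± 0.08 (1.69-fold, adjusted p = 2.7e-06). KRT80 fell by 0.46 ± 0.07 (1.38-fold, adjusted p = 5.9e-05). KRT23 fell by 0.88 ± 0.31 (adjusted p = 0.0414), a call lost without DMSO replicate 1 (0.15) or 3 (0.0821), without RepSox replicate 1 (0.121) or 3 (0.129), and in DESeq2 (0.0506). KRT7 (0.25 ± 0.31) and KRT17 (-0.65 ± 0.36) were not called. That made 4 of 8 lower and 0 higher, where 12.8% of genes were called lower and 12.5% higher (25.3% in all). At an unadjusted p below 0.05, 0 keratins were higher too, and DESeq2 also called 0 higher. ZEB1 fell by 0.67 ± 0.11 and 3 of 6 epithelial markers fell, CDH1 among them by 0.29 ± 0.05.

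DOX was also compared with no DOX under RepSox. Of 8 keratins tested 0 were called, where 0.0942% of genes were called higher and 0.383% lower (0.477% in all). At an unadjusted p below 0.05, 2 were higher (KRT18, KRT20) and 1 lower (KRT80), and DESeq2 called 0. The changes were 0.29 ± 0.09 for KRT18 (adjusted p = 0.205), 0.18 ± 0.08 for KRT20 (0.31), -0.17 ± 0.07 for KRT80 (0.288) and 0.12 ± 0.06 for KRT8 (0.394). KRT7 had -0.52 ± 0.32, KRT17 0.40 ± 0.37, KRT19 -0.08 ± 0.08 and KRT23 0.00 ± 0.33. This count rested on replicate 1 of DOX with RepSox. Without that library KRT18 (0.40, adjusted p = 0.00474) and KRT20 (0.28, adjusted p = 0.0153) were higher, and 1670 genes were called in place of 81. Leaving out each other library of the pair in turn gave 27 to 43 called genes, the lowest without DOX with RepSox replicate 2. ZEB1 was still 1.57 ± 0.11 higher on the log2 scale with DOX and RepSox than with RepSox alone (adjusted p = 1.4e-07).

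Cells with both agents, set against cells with neither, had more of the KRT8 and KRT18 pair and less of the other keratins called. KRT18 was higher by 0.46 ± 0.09 (1.37-fold, adjusted p = 0.0013) and KRT8 by 0.24 ± 0.06 (1.18-fold, adjusted p = 0.00821). KRT20 was lower by a log2 change of -1.10 ± 0.08 (2.14-fold, adjusted p = 1.4e-08), KRT19 by -0.84 ± 0.08 (1.79-fold, adjusted p = 6.6e-07) and KRT80 by -0.63 ± 0.07 (1.55-fold, adjusted p = 1.7e-06). KRT23 (-0.88 ± 0.30, adjusted p = 0.0401) was called too. It was lost without DMSO replicate 1 (0.148) or 3 (0.0745) and without DOX with RepSox replicate 1 (0.117) or 3 (0.164). KRT7 (-0.27 ± 0.32) and KRT17 (-0.25 ± 0.35) were not called. Thus 2 of 8 were higher and 4 lower, where 12.6% of genes were called higher and 13.6% lower (26.2% in all). All 6 epithelial markers were lower in this comparison, CDH1 by a log2 change of -0.43 ± 0.05.

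In SW620, RepSox was compared with DMSO. It raised 7 of the 8 keratins tested and lowered none, where 10.2% of 17147 genes were called higher and 9.24% lower (19.5% in all). With library totals 39.5% of all calls were higher in place of 52.5%, and 7 keratins were again higher. The hair keratin KRT81 rose most, by 1.39 ± 0.06 (2.62-fold, adjusted p = 8.6e-14), and KRT7 rose by 1.33 ± 0.09 (2.51-fold, adjusted p = 1.2e-10). KRT80 rose by 0.79 ± 0.04 (1.73-fold, adjusted p = 8.4e-13) and KRT19 by 0.79 ± 0.05 (1.73-fold, adjusted p = 7.8e-12). The pair KRT8 and KRT18 rose by 0.59 ± 0.04 (1.51-fold, adjusted p = 8.1e-11) and 0.47 ± 0.04 (1.39-fold, adjusted p = 1.0e-08). KRT23 rose by 0.52 ± 0.13 (1.44-fold, adjusted p = 0.00466). KRT17 had 0.26 ± 0.22 (adjusted p = 0.461) and was not called, and KRT20 did not pass the filter.

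The median log2 change of the 8 keratins tested in SW620 was 0.69, against -0.01 over all genes tested. Leaving out each library in turn kept 7 keratins higher each time. ZEB1 was not called (0.14 ± 0.08, adjusted p = 0.234). Of the 6 epithelial markers 1 was called higher, CDH1, by 0.87 ± 0.10, and it had 18.2 ± 0.352 CPM with RepSox and 9.97 ± 1.83 CPM with DMSO. The summed level of all 6 markers was 578 to 593 CPM with RepSox and 572 to 597 CPM with DMSO. The sum of basal and squamous markers was 16.9 to 18.4 CPM with RepSox and 10.5 to 12.6 CPM with DMSO. DSG3 was at 0 in both groups, and TP63 with RepSox only. Keratins made up most of this sum. KRT15 averaged 13.8 CPM with RepSox and 10.0 CPM with DMSO, and KRT5 3.38 and 1.46 CPM. The sum is thus not a check independent of the keratin changes. Fibroblast markers summed to 6.66 to 7.82 CPM with RepSox and 11.5 to 12.8 CPM with DMSO, with COL1A2, COL3A1 and PDGFRA at 0 in both. The part of these markers in the keratin changes was not tested.

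**Figure D3:**
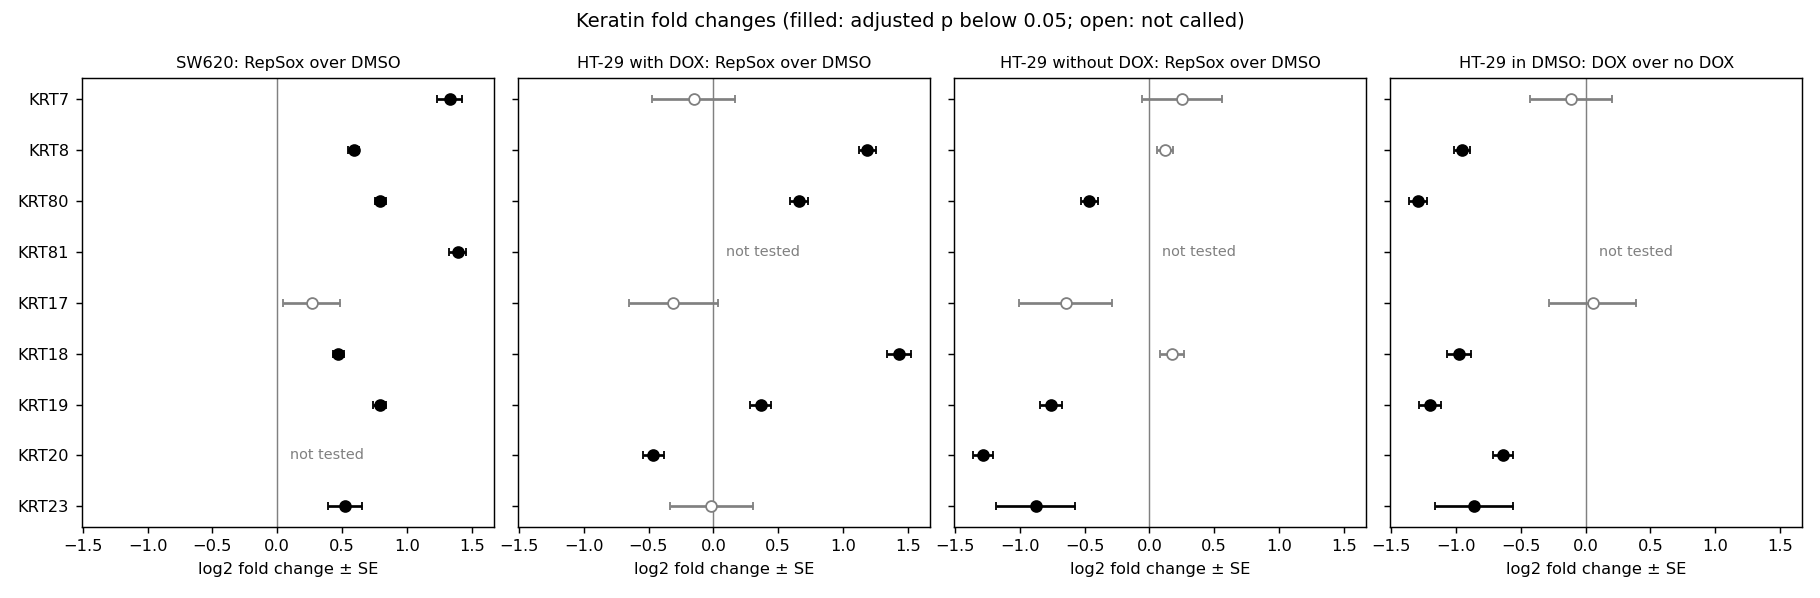
Log2 fold change (points) with its standard error (bars) of the 9 keratins for RepSox over DMSO in SW620, RepSox over DMSO in HT-29 iZEB1 with and without DOX, and DOX over no DOX in DMSO; filled points passed the test. KRT19 and KRT80 are to the right of 0 for RepSox in SW620 (0.79 each) and to the left of 0 for RepSox in HT-29 iZEB1 without DOX (-0.76 and -0.46).

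Whether RepSox acted differently in the lines was tested as the response in SW620 less that in uninduced HT-29 iZEB1, over all 18 libraries. Of the 7 keratins that passed the filter within each line, the difference was called positive for 5 and negative for 0. Among all 19107 genes 5.39% were called higher and 4.99% lower (10.4% in all), and among the 15160 that passed within each line, 6.65% and 6.11%. Fitting only the 4 groups of this contrast called 3016 genes in place of 1982. KRT19 differed by 1.54 ± 0.11 (adjusted p = 3.9e-10), KRT80 by 1.25 ± 0.08 (8.0e-11) and KRT23 by 1.39 ± 0.33 (0.00559). KRT19, KRT80 and KRT23 were called higher in SW620 and lower in HT-29 iZEB1 without DOX, so that 3 of the 4 keratins that fell in HT-29 iZEB1 rose in SW620, and the other, KRT20, was not tested there. KRT8 differed by 0.46 ± 0.08 (adjusted p = 1.8e-04). KRT18 had 0.29 ± 0.12 (adjusted p = 0.124) and was not called, but was in the fit of the 4 groups alone (0.31, adjusted p = 0.0131) and with no filter (adjusted p = 0.00633).

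KRT7 (1.07 ± 0.29, adjusted p = 0.0186) was called too, at 30 to 47 counts per library in these HT-29 iZEB1 groups. KRT7 lost its call without DMSO replicate 1 (0.0523) or RepSox replicate 3 (0.0647) of HT-29 iZEB1. KRT17 (0.90 ± 0.45, adjusted p = 0.227) was not called. KRT81 and KRT20 passed the filter only through the line in which they were high, so their differences are not counted. KRT81 had 2.38 ± 0.55 (adjusted p = 0.00466), with 12 and 24 counts over 3 HT-29 iZEB1 libraries with RepSox and with DMSO. Its value was 1.85 (adjusted p = 0.0778) without DMSO replicate 2 of HT-29 iZEB1. With similar genes added, KRT83 among them, it was 1.27 (adjusted p = 0.0527). KRT20 had 1.17 ± 0.51 (adjusted p = 0.159).

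Under DMSO the lines themselves differed in most genes (76.6% of 19107, 40.1% higher and 36.5% lower in SW620), and among the 15160 genes that passed the filter within each line 38.7% were higher and 37.2% lower. Of the 7 keratins that did so, 4 were higher and 2 lower in SW620 than in uninduced HT-29 iZEB1. Scaling by library totals moved the median of all genes up by 0.12 on the log2 scale. KRT81 and KRT20 passed only through the line in which they were high and are described by level: KRT81 averaged 33.7 ± 3.64 CPM in SW620 with DMSO and 0.226 ± 0.130 CPM in HT-29 iZEB1 with DMSO, and KRT20 0.187 ± 0.122 and 159 ± 4.83 CPM. KRT7 was 5.99-fold higher (adjusted p = 1.8e-11). Also higher were KRT23 3.45-fold (adjusted p = 4.6e-08), KRT80 2.37-fold (adjusted p = 3.4e-16) and KRT19 by a log2 change of 0.43 ± 0.08 (adjusted p = 1.8e-05). KRT8 was lower by a log2 change of -0.58 ± 0.05 (adjusted p = 5.9e-10). KRT18 was lower by a log2 change of -0.31 ± 0.08 (adjusted p = 0.00169), and by -0.18 (adjusted p = 0.0438) with library totals. KRT17 was not called (0.54 ± 0.31, adjusted p = 0.115).

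Levels were also set side by side per kb of the principal transcript, which allows genes to be compared. Summed over the 9 keratins the level was 4964 ± 290 CPM per kb with DOX and RepSox, 2173 ± 126 with DOX and DMSO, 4454 ± 91.6 with RepSox alone and 4276 ± 303 with DMSO alone. In SW620 it was 4954 ± 181 with RepSox and 3264 ± 118 with DMSO (SD, n = 3 each). The ratio of KRT8 to KRT18 per kb lay between 1.97 and 2.42 in group means, with DOX and DMSO at the upper end. Libraries with DOX and DMSO (2.29 to 2.53) overlapped those with RepSox alone (2.09 to 2.49) and DMSO alone (2.27 to 2.50). The 3 libraries with DOX and RepSox had 2.44, 1.86 and 1.92. The ratio of type II to type I keratins was 1.32 ± 0.0236 and 1.30 ± 0.0546 in SW620 with RepSox and with DMSO. In HT-29 iZEB1 it was 1.78 ± 0.255 with DOX and RepSox, 1.74 ± 0.0554 with DOX and DMSO, 1.91 ± 0.128 with RepSox alone and 1.69 ± 0.0447 with DMSO alone. These values depend on the length used. Per kb of the union of all exons the ratio was 0.838 and 0.822 in SW620 with RepSox and with DMSO, so that type I was then the higher, and 1.09, 1.01, 1.16 and 0.984 in the 4 HT-29 iZEB1 groups in the same order. The summed level was then 2087 and 1356 CPM per kb in the SW620 groups and 1902, 861, 1697.2 and 1697.4 in the HT-29 iZEB1 groups, and KRT8 over KRT18 lay between 1.25 and 1.54.

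On the type I side KRT19 made up 41.2% ± 0.485 of the type I level in SW620 with RepSox and 35.9% ± 1.18 in SW620 with DMSO. In HT-29 iZEB1 it made up 11.9% ± 0.926 with DOX and RepSox, 20.7% ± 1.3 with DOX and DMSO, 14.7% ± 1.54 with RepSox alone and 23.9% ± 1.14 with DMSO alone. KRT20 held 2.38% ± 0.0659, 7.41% ± 0.232, 2.48% ± 0.299 and 5.77% ± 0.581 in the same 4 groups, and 4.40%, 12.9%, 4.54% and 10.1% per kb of the exon union. Both RepSox groups thus had the lower KRT19 and KRT20 shares in HT-29 iZEB1, without overlap with the DMSO groups, while the KRT19 share was the higher in SW620 with RepSox.

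**Figure D4:**
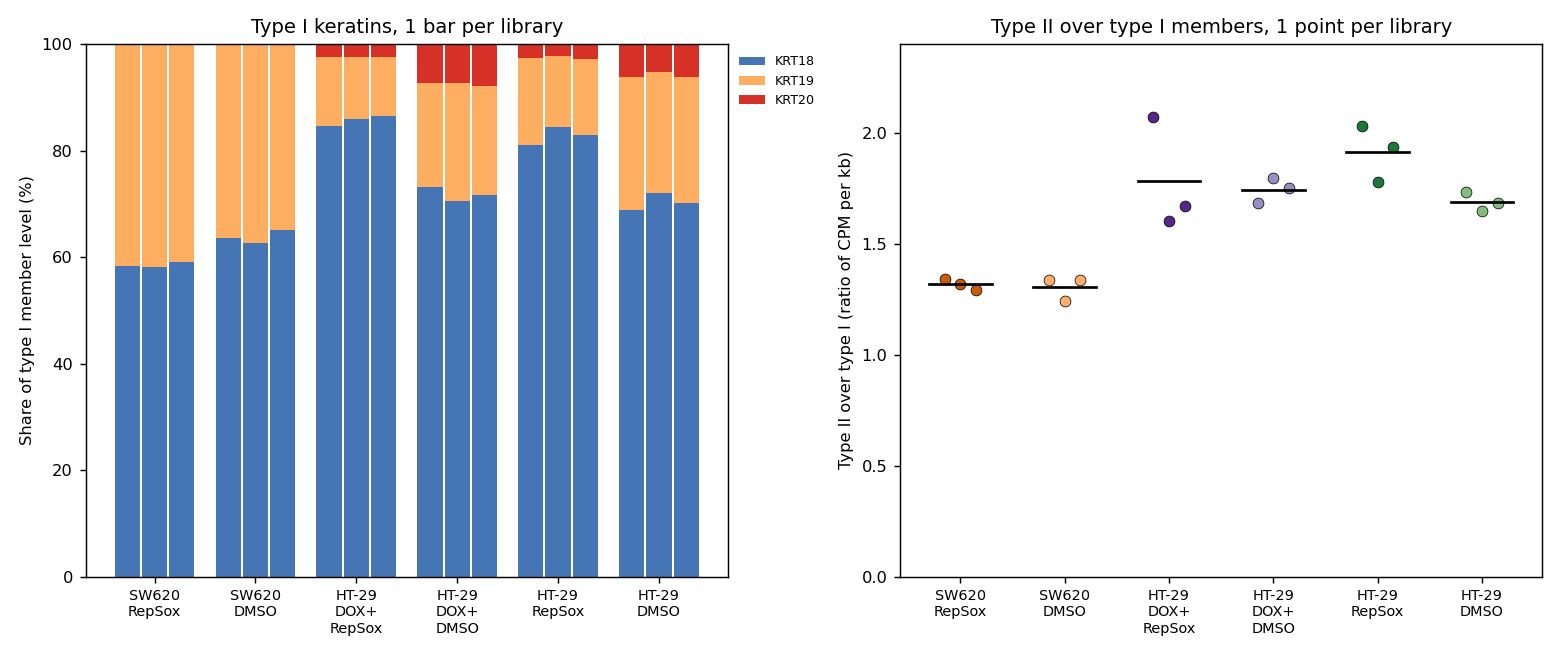
Left, share of KRT18, KRT19 and KRT20 in the summed type I level (CPM per kb), 1 bar per library in groups of 3 (KRT17 and KRT23 fill the small rest). Right, ratio of summed type II to type I levels, 1 point per library with group means as bars; the SW620 means are 1.32 and 1.30 and the HT-29 iZEB1 means 1.69 to 1.91.

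Of the 45 other keratin genes, 14 had no count in any library and 8 reached 1 CPM in some group. KRT13, a type I keratin of stratified mucosa, had 32.1 ± 0.633 CPM with DOX and RepSox, 8.49 ± 0.221 with DOX and DMSO, 33.8 ± 0.546 with RepSox alone and 24.7 ± 0.677 with DMSO alone. It fell 2.90-fold with DOX (adjusted p = 5.6e-12), rose 3.76-fold with RepSox on top of DOX (adjusted p = 2.9e-13) and rose 1.36-fold with RepSox alone (adjusted p = 7.5e-05). KRT15, a type I keratin of basal layers, had 2.27 ± 0.210, 1.09 ± 0.237, 2.08 ± 0.201 and 4.92 ± 0.682 CPM in the same 4 groups. It fell 4.50-fold with DOX (adjusted p = 2.4e-08), rose 2.07-fold with RepSox on top of DOX (adjusted p = 1.8e-04) and fell 2.38-fold with RepSox alone (adjusted p = 3.5e-05), the same directions as KRT19 and KRT80. KRT10, an epidermal type I keratin, had group means of 22.2 to 24.9 CPM without SW620 and was not called in any comparison among HT-29 iZEB1 groups.

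In SW620, 7 of the 9 other keratins tested were higher with RepSox and none was lower, beside 10.2% and 9.24% of all genes. KRT40, a type I hair keratin, had 43.4 ± 2.04 CPM with RepSox and 27.6 ± 1.17 CPM with DMSO (1.57-fold, adjusted p = 1.8e-08). KRT5, the type II keratin of basal cells, had 3.38 ± 0.154 CPM with RepSox and 1.46 ± 0.150 CPM with DMSO (2.32-fold, adjusted p = 7.3e-06). KRT83 had 2.75 ± 0.373 CPM with RepSox and 1.13 ± 0.457 CPM with DMSO (2.43-fold, adjusted p = 2.3e-04), and reads it may share with KRT81 could not be separated. KRT10 was not called (-0.19 ± 0.07, adjusted p = 0.0503).

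Among 13 other intermediate filament genes, 6 were tested in HT-29 iZEB1. DOX raised 4 and lowered 2 of them, beside 19.2% and 21.1% of all genes. NES, the nestin gene, rose 3.41-fold (adjusted p = 1.4e-07), and VIM, the vimentin gene, rose 2.69-fold (adjusted p = 0.00838) but only to 0.863 ± 0.377 CPM with DOX and DMSO, against 0.320 ± 0.141 CPM with DMSO alone. SW620 had VIM at 228 ± 3.53 CPM with RepSox and 244 ± 4.45 CPM with DMSO, next to KRT8 at 5690.2 and 3779 CPM. RepSox on top of DOX lowered NES 2.83-fold (adjusted p = 5.2e-07), with 2 of 6 higher and 2 lower, beside 26.8% and 25.5% of all genes. Of 7 tested in SW620, RepSox raised 2 and lowered 1 (10.2% and 9.24% of all genes), and NES rose 1.33-fold (adjusted p = 4.8e-08).

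The genes that link and organise keratin filaments moved with DOX in both directions. Of 22, 12 fell and 4 rose, beside 21.1% and 19.2% of all genes. The share that rose was near that of all genes. Their median log2 change was -0.25, against 0.002 over all genes. LAD1, the ladinin gene, fell 4.21-fold (adjusted p = 9.4e-14), PPL, which encodes the plakin periplakin, 3.61-fold (2.4e-12), PKP3, a desmosomal plakophilin, 3.50-fold (2.4e-12), and EPPK1, the epiplakin gene, 3.37-fold (7.8e-12). RepSox on top of DOX raised 12 and lowered 8 (26.8% and 25.5% of all genes), with LAD1 4.08-fold (adjusted p = 1.7e-13) and EPPK1 3.10-fold (adjusted p = 1.9e-11) higher and the plakin gene DST 3.01-fold lower (adjusted p = 7.9e-11). RepSox alone raised 1 and lowered 10 (12.5% and 12.8% of all genes), PPL by 2.03-fold (adjusted p = 4.1e-08) and the desmosomal plakoglobin gene JUP by 1.53-fold (adjusted p = 2.9e-05). In SW620, RepSox raised 7 and lowered 2 (10.2% and 9.24% of all genes), with the plectin gene PLEC 1.57-fold (adjusted p = 1.3e-11) and PPL 1.28-fold (adjusted p = 4.2e-06) higher. The difference between the lines was positive for 7 of the 22 and negative for none (5.39% and 4.99% of all genes), by 1.37 ± 0.10 for PPL (adjusted p = 4.9e-10).

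Of 20 factors picked for an action on simple epithelial keratin genes, DOX lowered 9 and raised 3, beside 21.1% and 19.2% of all genes. The share raised was near that of all genes. Whether each factor acts on the keratins here was not tested. TFAP2C fell most with DOX, 7.82-fold (adjusted p = 1.4e-06), and fell 1.98-fold with RepSox alone (adjusted p = 0.0163). With both agents TFAP2C was 3.12-fold lower than with neither (adjusted p = 5.4e-04). GRHL2, a grainyhead-like activator of epithelial genes, had 87.0 ± 4.09 CPM with DOX and RepSox, 33.6 ± 0.503 with DOX and DMSO, 95.0 ± 2.66 with RepSox alone and 113 ± 0.910 with DMSO alone. It fell 3.35-fold with DOX (adjusted p = 5.3e-14) and rose 2.57-fold with RepSox on top of DOX (adjusted p = 1.9e-12). OVOL1 and OVOL2, zinc-finger factors of epithelial cells, fell 6.57-fold (adjusted p = 2.4e-10) and 2.73-fold (adjusted p = 6.7e-08) with DOX. They rose 5.01-fold (adjusted p = 1.8e-09) and 2.72-fold (adjusted p = 4.3e-08) with RepSox on top of it. That comparison had 9 of 20 higher and 4 lower, beside 26.8% and 25.5% of all genes.

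RepSox alone raised 3 and lowered 4 of these 20 factors, near the 12.5% and 12.8% of all genes, among them JUNB, an AP-1 subunit, which fell 2.18-fold (adjusted p = 8.1e-08). In SW620, where 15 were tested, RepSox raised 5 and lowered 4 (10.2% and 9.24% of all genes). FOSL1, another AP-1 subunit, rose 1.63-fold there (adjusted p = 1.4e-10) and KLF5, a Krüppel-like factor of gut epithelium, 1.45-fold (adjusted p = 3.3e-09). The AP-1 subunit FOS went the other way and fell 1.44-fold (adjusted p = 0.00347). GRHL2 was at 0.0517 ± 0.0513 CPM in SW620 with RepSox and 0.0677 ± 0.0285 CPM in SW620 with DMSO, and OVOL1 had 0 counts in the SW620 DMSO libraries, where KRT8 and KRT18 averaged 3779 and 1412 CPM. A link between these factors and keratin levels was not tested.

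Genes with the most similar pattern were sought over the 12 HT-29 iZEB1 libraries among 10523 genes, by Pearson's r of log2 CPM. The libraries fall into 4 groups, so r mainly reflects group means, and is given as a description. KRT8 came closest to CCT5 (0.995), HNRNPAB (0.992) and CHDH (0.991), and KRT18 to DDX27 and GNL2 (0.99 each) and SART3 (0.983). KRT19 came closest to PPL (0.982), MISP (0.977) and CRYBG2 (0.972), and KRT80 to CDC42BPG (0.993), LAMB3 (0.992) and B3GNT3 (0.992). KRT20 came closest to EPS8L3 (0.982), BCAS1 (0.974) and GCOM1 (0.973). KRT7, at about 1 CPM in these libraries, came closest to PEF1 (0.852), LINC01006 (0.836) and CCDC22 (0.819). Between keratins, r was 0.97 for KRT8 with KRT18 and 0.92 for KRT19 with KRT80, against 0.54 for KRT8 with KRT19 and -0.27 for KRT8 with KRT20.

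Of the 9 keratins, the RefSeq promoter table matched KRT8 and KRT20. The KRT8 start in it is not that of the principal transcript, so that window is not shown. KRT20, which fell with DOX and with RepSox, has the promoter below (GRCh38.p14, chr17:40885193-40885492, minus strand, from RefSeq), with 250 bases before the start and 50 after. Capitals mark CAGGTG, an E-box of the kind ZEB1 is known to bind.
KRT20 promoter: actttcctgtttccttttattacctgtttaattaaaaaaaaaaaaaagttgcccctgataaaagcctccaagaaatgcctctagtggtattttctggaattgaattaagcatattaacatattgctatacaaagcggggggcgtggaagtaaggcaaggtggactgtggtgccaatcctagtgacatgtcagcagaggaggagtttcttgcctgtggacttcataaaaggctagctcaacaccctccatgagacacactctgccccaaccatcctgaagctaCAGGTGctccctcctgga
CAGGTG, searched on both strands, occurs once, from position 33 with the RefSeq start counted as 1, and 20.6% of 35116 promoters of the same length hold it. TGANTCA and TATAAA, searched alike, are not in this window and are in 7.71% and 11.5% of promoters.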

How the data were processed

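RNA sequencing counts were analysed for 18 libraries of HT-29 iZEB1 and SW620 cells, with groups taken from the labels. The deposited counts are raw read numbers for each gene symbol. The submitters' processing notes name HISAT2 2.2.0 and featureCounts 2.0.0, beside FastQC 0.11.9, and GRCh38.p13 as build. Counting settings, strand and annotation release: not given in the sources used here. Multi-mapped reads may be dropped or shared between keratins and their copies, which would lower or mix their counts.

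The quasi-likelihood test of edgeR 4.0.16 (R 4.3.3) was run after TMM scaling and filterByExpr (minimum count 10), with p-values adjusted by Benjamini-Hochberg across the whole table. Genes with adjusted p under 0.05 were called. The 12 HT-29 iZEB1 libraries, the 6 SW620 libraries and all 18 were fitted separately. Standard errors are the unshrunken log2 fold change over the square root of F. Intervals are 95% intervals. Counting noise did not account for the differences between replicates (chi-square per degree of freedom from 3.93), so each counted as 1 library.

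Lengths and positions are from GENCODE 29, matched by symbol. Alternatives were RLE factors, library totals, no filter, DESeq2 1.42.0, a replicate block and overlapping or similar genes summed. Others were only the groups compared, each library left out and, chosen after seeing the data, exon-union lengths. From each of 3 lists, up to 4 called genes per comparison with the largest change could be named, and 3 similar genes for each keratin with at least 10 CPM, and other keratins reaching 1 CPM. The 4 HT-29 iZEB1 groups share libraries between comparisons. Keratins and lists were chosen with earlier results of these data known. A Y-linked KRT18 pseudogene is not reported. Some sequences are not reported here.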

Additional observations from a re-analysis of the deposited data

Results flagged for a closer look

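The DOX effect differed between RepSox and DMSO in HT-29 iZEB1 cells, by the test of the interaction, for 5 of the 8 keratins tested. All 5 were called higher, where 13.0% of 16978 genes were called higher and 9.61% lower (22.6% in all). The difference in log2 change was 1.07 for KRT8, 1.26 for KRT18, 1.12 for KRT19, 0.82 for KRT20 and 1.13 for KRT80. ZEB1 was 23.8-fold lower with DOX and RepSox than with DOX and DMSO, and its part in these differences was not tested.

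The RepSox response differed between SW620 and uninduced HT-29 iZEB1 cells for 5 of the 7 keratins that passed the filter within each line. Of the 15160 genes that did so, 6.65% were called higher and 6.11% lower. The difference in log2 change was 1.07 for KRT7, 0.46 for KRT8, 1.54 for KRT19, 1.39 for KRT23 and 1.25 for KRT80. KRT7 had only 30 to 47 counts per library in these HT-29 iZEB1 groups. Its call was lost without DMSO replicate 1 (adjusted p = 0.0523, edgeR) or RepSox replicate 3 (adjusted p = 0.0647) of HT-29 iZEB1. KRT81 had 2.38, but passed the filter only through SW620. It had 12 and 24 counts over 3 HT-29 iZEB1 libraries with RepSox and with DMSO. KRT81 lost its call with similar genes added, KRT83 among them (adjusted p = 0.0527, edgeR). It also lost it without DMSO replicate 2 of HT-29 iZEB1 (adjusted p = 0.0778).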

How the results depend on the processing

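Over all comparisons the 9 keratins kept direction and side of the threshold in 1008 alternative values, lost the call in 17, gained it in 6 and changed sign in 17. Those 17 sign changes were of uncalled KRT7, KRT17 and KRT23, and KRT10, which is not among the 9, changed sign as well.

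Log2 changes with DOX in DMSO reversed with overlapping or similar genes summed for KRT7 (0.0496) and KRT17 (-0.17). DOX in RepSox gave KRT23 -4.1e-04 with RLE factors, -0.0056 with no filter, -0.0125 with the block and -0.0041 with DESeq2. With libraries left out in turn, DOX in DMSO gave -0.22 to 0.29 for KRT17 and -0.53 to 0.15 for KRT7, and RepSox with DOX gave -0.41 to 0.26 for KRT7, -0.46 to 0.21 for KRT23 and -0.15 to 0.0044 for KRT10. DOX in RepSox gave -0.45 to 0.20 for KRT23, both agents against neither -0.0688 to 0.0643 for KRT10, and the interaction -0.66 to 0.0106 for KRT7.

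Calls for DOX in RepSox depended most on the settings: 81 genes (16 higher, 65 lower) became 584 (199 and 385) with no filter and 260 (83 and 177) with DESeq2. Leaving out 1 library gave 27 to 1670 (5 to 663 higher, 22 to 1007 lower) and 0 to 2 keratins higher. With no filter 1 keratin, KRT18, was higher there and 1, again KRT18, with RepSox without DOX. RepSox in SW620 lowered 1055 to 1899 genes with a library left out (1584 with all), the lowest without DMSO replicate 2. The difference between lines called 3016 genes (1585 higher, 1431 lower) when only its groups were fitted. Fewer samples or other genes tested come with several of these settings; beyond that the cause was not tested.

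Replicate numbers did not pair the libraries: deviations of same-numbered libraries correlated between -0.145 and 0.103. With the replicate as a block, DOX in RepSox called 109 genes (27 higher), and no call of a keratin changed.

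At 1 to 60 counts per library KRT7, KRT17, KRT23 and KRT81 in HT-29 iZEB1 and KRT20 in SW620 were measured too thinly for small changes.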
